A study of Mus musculus with 6 samples.

Results

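Guanylate-binding proteins (GBPs) are large GTPases of the dynamin superfamily whose genes are switched on by interferons. The genes described here are Gbp2, Gbp3, Gbp4, Gbp5, Gbp6, Gbp7, Gbp8, Gbp9, Gbp10 and Gbp11, which are 10 of the 26754 genes in the deposited tables. They were selected on their RPKM values in the day 7 and day 14 libraries, so the differences between the days are a description of them and carry no p-value. RNA was sequenced from cells of tumours grown from the mouse melanoma line B16, injected under the skin of the right flank of female C57BL/6J mice aged 6 to 8 weeks. Cells were selected with magnetic beads against CD8a and are labelled as CD8+ T cells. Both groups carry the same tumour and no further agent: one was taken on day 7 and the other on day 14 after implantation, with 3 libraries each. The labels do not say that replicates came from separate mice, so p-values measure the spread between these samples, which may be technical.

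GBPs assemble on membranes around intracellular pathogens and on bacteria, and help to open pathogen vacuoles and to start inflammasome signalling. Interferon gamma, which activated T cells and natural killer (NK) cells release, acts through the kinases JAK1 and JAK2 on gamma-activated sites (GAS), and through the induced factor IRF1 on interferon-stimulated response elements (ISRE). In mice the genes lie in a cluster on chromosome 3 and another on chromosome 5, and interferon gamma induces them in many cell types, T cells, macrophages and melanoma cells among them.

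Promoters of the 4 members on chromosome 3 are shown because GAS and ISRE are the elements through which interferon gamma acts on this family. Gbp3 and Gbp2 hold ISRE letters alone, and Gbp5 and Gbp7 hold letters of both. Promoters of Gbp4, Gbp6, Gbp8, Gbp9, Gbp10 and Gbp11 were not analysed here. RefSeq sequences of GRCm38.p6 run from 250 bases before to 50 bases after a transcription start. Capitals mark matches to GAS, TTCNNNGAA, or to ISRE, GAAANNGAAA, searched on both strands. The ISRE matches below stand on the opposite strand and so read in reverse complement.
Gbp5 (chr3:142496684-142496983, plus strand): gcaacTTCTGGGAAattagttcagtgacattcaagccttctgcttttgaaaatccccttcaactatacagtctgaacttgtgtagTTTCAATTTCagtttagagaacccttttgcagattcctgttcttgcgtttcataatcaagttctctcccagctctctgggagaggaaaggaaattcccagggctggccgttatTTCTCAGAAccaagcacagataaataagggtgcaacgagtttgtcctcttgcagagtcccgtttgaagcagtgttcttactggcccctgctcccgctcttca
Gbp7 (chr3:142530086-142530385, plus strand): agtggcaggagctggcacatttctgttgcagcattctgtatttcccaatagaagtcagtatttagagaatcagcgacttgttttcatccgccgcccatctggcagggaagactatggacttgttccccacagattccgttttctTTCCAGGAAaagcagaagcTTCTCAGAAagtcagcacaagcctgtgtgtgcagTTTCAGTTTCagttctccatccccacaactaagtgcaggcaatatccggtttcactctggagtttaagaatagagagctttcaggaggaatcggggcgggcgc
Gbp3 (chr3:142559794-142560093, plus strand): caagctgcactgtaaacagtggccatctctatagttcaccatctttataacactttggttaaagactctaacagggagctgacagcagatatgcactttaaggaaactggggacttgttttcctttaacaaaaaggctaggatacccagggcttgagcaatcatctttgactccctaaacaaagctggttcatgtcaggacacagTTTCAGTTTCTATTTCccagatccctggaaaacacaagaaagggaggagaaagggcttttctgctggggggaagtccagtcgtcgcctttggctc
Gbp2 (chr3:142620413-142620712, plus strand): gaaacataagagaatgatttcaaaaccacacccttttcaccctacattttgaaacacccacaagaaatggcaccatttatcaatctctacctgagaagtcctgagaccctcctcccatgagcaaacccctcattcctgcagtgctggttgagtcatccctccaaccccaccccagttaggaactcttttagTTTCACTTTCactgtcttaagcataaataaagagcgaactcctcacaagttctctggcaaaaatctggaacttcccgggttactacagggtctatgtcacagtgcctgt

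An ISRE match was found in each of the 5 chromosome 3 genes with a promoter in the table (Gbp2, Gbp3, Gbp5, Gbp7 and Gbp2b, a family gene outside the 10), against 3.99% of 27025 genes (3.44% of 32851 promoters, since a gene can have several). A GAS match was found in Gbp5 and Gbp7 alone among these 5 genes, with 2 matches each, against 9.55% of genes (8.30% of promoters). In Gbp3 a pair of overlapping ISRE matches lay between 45 and 30 bases before the start, and in Gbp2 a single ISRE match lay between 59 and 50 bases before it. In Gbp7 the 2 GAS matches and the ISRE match lay within 106 bases of the start. When only the 100 bases before the start were searched, ISRE matches were left in Gbp2, Gbp3 and Gbp7 (1.14% of genes, 0.983% of promoters) and GAS matches in Gbp5 and Gbp7 (3.005% of genes, 2.55% of promoters). The RefSeq starts used for Gbp5, Gbp3 and Gbp2 lie inside their gene models. The Gbp5 matches and the Gbp2 ISRE match therefore also fall inside the models, though before the RefSeq start. The start listed next for Gbp3 gave no match. A match is a description of letters, and binding was not measured.

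**Figure D1:**
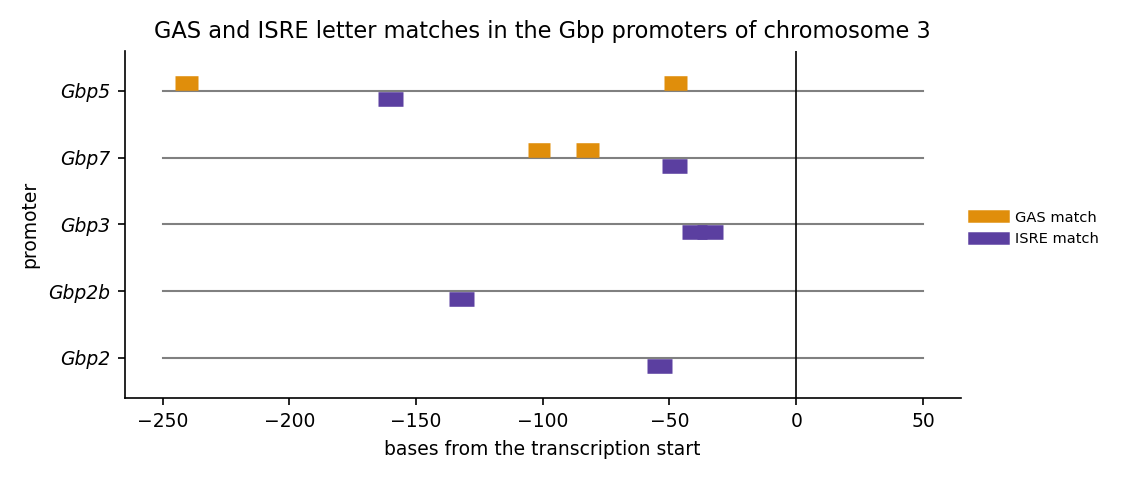
Positions of GAS matches (orange) and ISRE matches (purple) in bases from the transcription start, from 250 before to 50 after it, for 5 promoters of chromosome 3. Each promoter holds an ISRE match, at different distances, and Gbp5 and Gbp7 also hold 2 GAS matches each.

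Values are RPKM, reads scaled to gene length in kilobases and to all reads assigned to genes. Libraries held 6523019 to 9313078 reads in genes on day 7 and 11385106 to 13316522 on day 14. Between day 7 replicates 1 and 2 the spread was close to sampling noise (median chi-square ratio 1.11, where 1 is sampling alone), and they were counted as 1 sample, so n = 2 for day 7 and n = 3 for day 14. Day 7 replicate 3 stood apart from them, with ratios of 40.9 and 44.4 against 4.05 to 4.43 between day 14 libraries. Leaving it out left 1 day 7 sample, so for that fit log2 fold changes of named genes are given and calls are not.

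The label was checked against cell type markers. Summed over 15 T cell genes, RPKM was 615 to 683 on day 7 and 162 to 177 on day 14, and none of the 15 was at 0 in any library. NK cell markers were at 140.5 to 187 and then 21.1 to 23.2. Summed macrophage markers moved the other way, from 363 to 471 up to 727 to 743, as did summed melanocyte markers, from 5720 to 5946 up to 10460 to 11480. The largest contributions came from Lyz2 (186 to 232 and then 376 to 392) and Dct (4431 to 4726 and then 8577 to 9681). Not every marker rose: Fcgr1 was lower in every day 14 library (19.36 to 31.75 and then 15.2 to 18.71). Adgre1, C1qc, Mitf, Oca2, Pmel and Slc45a2 overlapped between the days. Neutrophil markers were at 12.7 to 17.4 on day 7, with 3 of 6 at 0 in every day 7 library, and at 50.2 to 65.3 on day 14. Most of the day 14 sum was S100a9 (3.29 to 8.81 and then 36.6 to 49.2). Csf3r, Cxcr2 and Retnlg were also higher, at no more than 7.28 on day 14. S100a8 overlapped between the days, and Ly6g was at 0.186, 0 and 0 on day 14. Dendritic cell markers overlapped between the days (lowest 19.0 on day 7, highest 20.4 on day 14) and B cell markers stayed at or under 6.77. Red cell markers were at 1654 to 2114 on day 7 and at 1782 to 2007 on day 14. RNA of tumour, myeloid and red cells was therefore present beside T cell RNA, and the files do not say which cells gave the Gbp reads.

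The Gbp genes as a family were lower per read on day 14. Their summed RPKM was 860.1, 869 and 904.5 in day 7 replicates 1 to 3 and 352, 337 and 332 on day 14, a mean of 884 ± 28.4 (SD, n = 2) against 340.4 ± 10.3 (SD, n = 3). The groups lay far apart, with a 2.60-fold lower mean on day 14. Relative to T cell transcripts the direction turned: 12 T cell scaling genes were themselves 3.37-fold lower, and the Gbp sum per unit of their sum was 2.68, 2.88 and 2.80 on day 7 and 3.90, 3.74 and 3.24 on day 14. Most tested genes were higher with this divisor (6198 of 6691 called). Their median log2 fold change was 1.72, against 0.38 for the Gbp sum. In a bulk sample fewer cells of a type and less RNA per cell cannot be told apart, and the part of cell composition in the Gbp values was not tested.

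**Figure D2:**
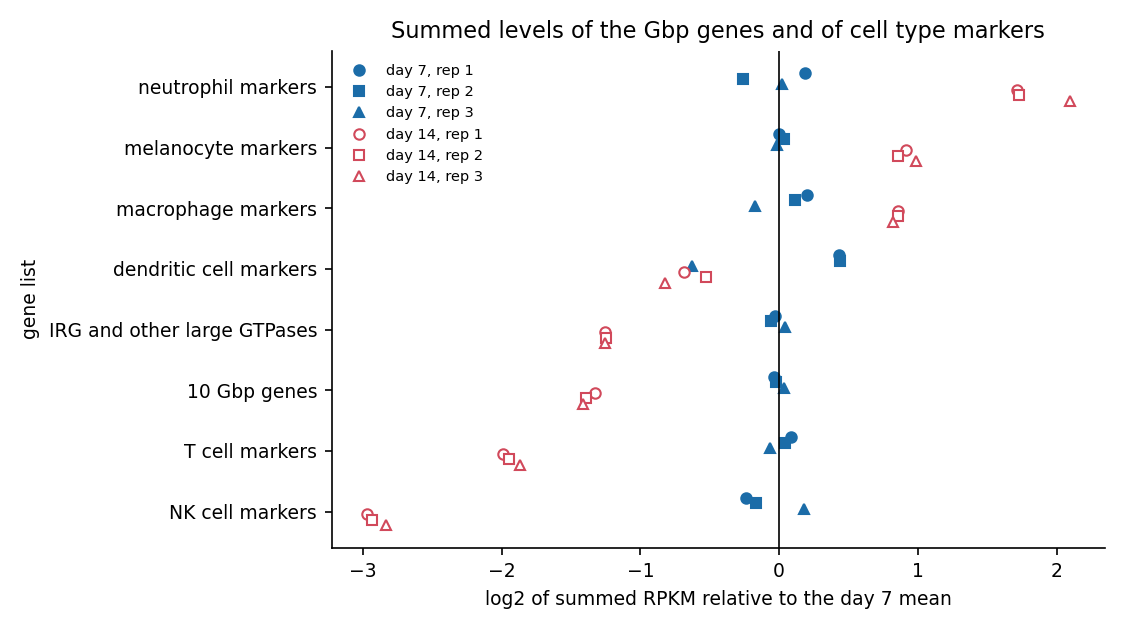
Summed RPKM of the 10 Gbp genes, of related interferon-induced GTPases without Gbp2b and of cell type markers, as log2 of each library relative to the day 7 mean. On day 14 the Gbp sum lies between -1.41 and -1.33, above the T cell markers (-1.99 to -1.87) and below the macrophage markers (0.82 to 0.85), so that per T cell transcript it is higher.

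Among members, 10 of 10 passed the filter on low values and 10 of 10 had every day 14 library below every day 7 sample, as did 18.7% of all tested genes. Gbp11 had the lowest mean CPM of the members, 23.13, and passed the filter only through its day 7 level. Its mean RPKM was 18.48 on day 7 and 2.005 on day 14. In the fit over all genes 8 of 10 were past the threshold in the lower direction, against a background of 3.18%; since the same contrast chose the members, nothing is read from these counts. Log2 fold changes of RPKM + 1 ran from -2.68 to -0.59 with a median of -1.40, beside a median of 0.16 over 6691 tested genes. Per T cell transcript 8 of the 10 turned positive while Gbp10 and Gbp11 stayed below 0. On that scale the median of all tested genes was 1.72, above the values of all 10 members.

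**Figure D3:**
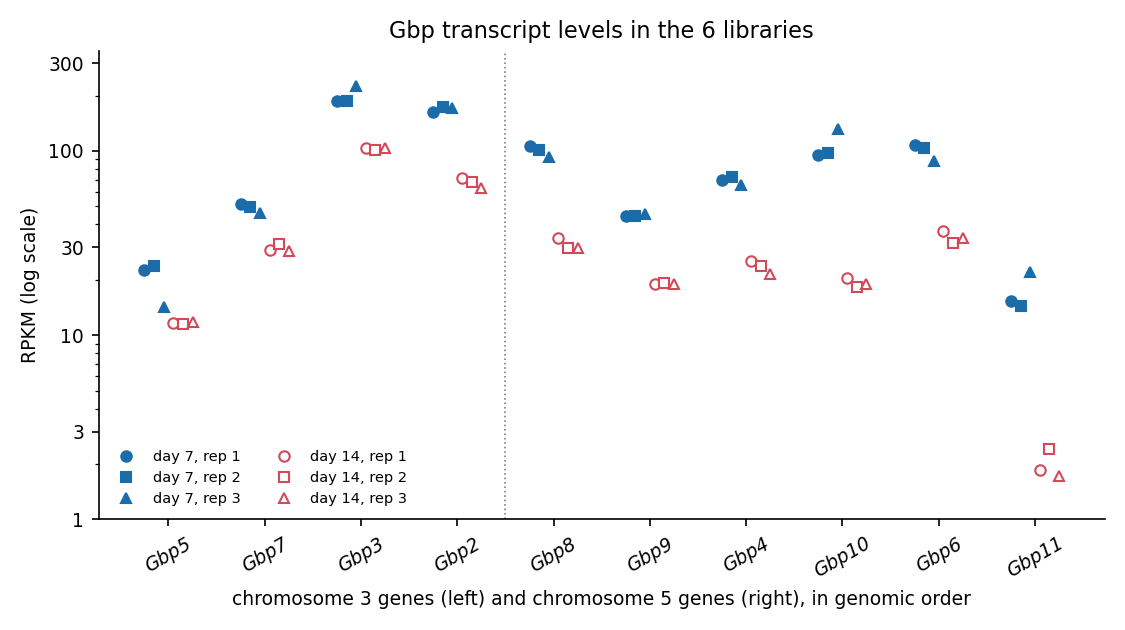
RPKM of each Gbp gene on a log axis in every library, day 7 filled and day 14 open, in genomic order. All day 14 values lie below the day 7 values of the same gene on this scale. Per T cell transcript 8 of the 10 genes are higher on day 14, as are most tested genes.

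On chromosome 3, Gbp3 had the highest level of the family in every library, and Gbp2 came next. Gbp3 was at 186, 187 and 226 RPKM on day 7 and 103, 101 and 104 on day 14. The day 14 libraries agreed closely, and day 7 replicate 3 was the highest of the 6. Its log2 fold change was -0.99 (SE 0.15). Gbp2, a prenylated GBP that coats pathogen vacuoles, was at 162, 174 and 172 RPKM and then 71.5, 68.0 and 63.3, with no overlap. Its log2 fold change was -1.32 (SE 0.16). Per T cell transcript both were positive, at 0.75 for Gbp3 and 0.42 for Gbp2.

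Gbp7 and Gbp5 had the smallest differences of the family with all libraries. Gbp7, which supports killing of intracellular bacteria in macrophages, was at 51.5, 49.9 and 45.9 RPKM on day 7 and 29.0, 31.4 and 28.7 on day 14 (log2 fold change -0.68, SE 0.22). A gene model on the same strand, Gm43802, shares 637 exonic bases with Gbp7, 11.4% of the Gbp7 length, so part of the Gbp7 reads is uncertain. Gm43802 was at 44.3, 39.95 and 62.3 RPKM on day 7 and 41.2, 38.9 and 43.4 on day 14, and these overlapped. Gbp5, another prenylated member and a promoter of NLRP3 inflammasome assembly, was at 22.5, 23.8 and 14.2 RPKM and then 11.7, 11.5 and 11.9. Day 7 replicate 3 lay nearer to the day 14 libraries than to the other day 7 libraries. The log2 fold change of Gbp5 was -0.59 (SE 0.31), and -0.93 without that replicate, when Gbp7 (-0.75) and Gbp3 (-0.85) differed less. Per T cell transcript these genes had the highest values of the family, at 1.02 for Gbp7 and 1.03 for Gbp5.

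On chromosome 5, Gbp8, Gbp4 and Gbp9 differed by similar amounts. Gbp8 was at 106, 101 and 92.5 RPKM on day 7 and 33.6, 29.7 and 29.8 on day 14 (log2 fold change -1.63, SE 0.19). Gbp4 was at 69.3, 72.6 and 65.3 RPKM and then 25.4, 23.7 and 21.4 (-1.50, SE 0.22). Gbp9 was at 44.4, 44.5 and 45.7 RPKM and then 18.9, 19.3 and 18.9 (-1.20, SE 0.22), with the smallest spread of the family on day 7. In each of these 3 genes the days were well separated, and per T cell transcript the values were small and positive (0.09 for Gbp8, 0.21 for Gbp4 and 0.49 for Gbp9).

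Gbp10 and Gbp6, both reported to restrict intracellular bacteria, are near copies, with 98.4% identity over their aligned coding bases. Gbp10 was at 95.6, 98.0 and 132 RPKM on day 7 and 20.5, 18.2 and 18.9 on day 14 (log2 fold change -2.50, SE 0.19, and -0.79 per T cell transcript). Gbp6 was at 108, 103 and 88.7 RPKM and then 36.6, 31.7 and 33.7 (-1.48, SE 0.20, and 0.24 per T cell transcript). The ratio of Gbp10 to Gbp6 was 0.89, 0.95 and 1.49 on day 7 and 0.56, 0.57 and 0.56 on day 14, so it was lower in every day 14 library, with day 7 replicate 3 the highest. Reads of these genes are uncertain. Of 150-base windows, 59.1% of those of Gbp6 and 66.6% of those of Gbp10 occur in another family gene or in the gene model Gm43302. This model shares 1726 exonic bases with Gbp6 and 1792 with Gbp10, so the percentages do not measure the likeness of Gbp6 and Gbp10 alone. The sum of Gbp10 and Gbp6, 203, 201 and 221 RPKM against 57.1, 49.9 and 52.6, was 3.98-fold lower on day 14. Without both genes the other members' sum was 2.34-fold lower. Gm43302 itself was at 140, 133 and 126 RPKM and then 48.0, 41.65 and 44.7, with a 2.93-fold lower mean on day 14.

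Gbp11, annotated as a polymorphic pseudogene in GENCODE M21, was the least abundant member on day 14. It was at 15.2, 14.4 and 22.2 RPKM on day 7 and 1.86, 2.43 and 1.73 on day 14, from 57 to 389 reads a library. Its log2 fold change of -2.68 (SE 0.35) was the lowest of the family, as was its value per T cell transcript, -1.20. With so few reads on day 14 its size is less certain than those of the other members, and with a pseudocount of 0.1 in place of 1 it was -3.13.

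**Figure D4:**
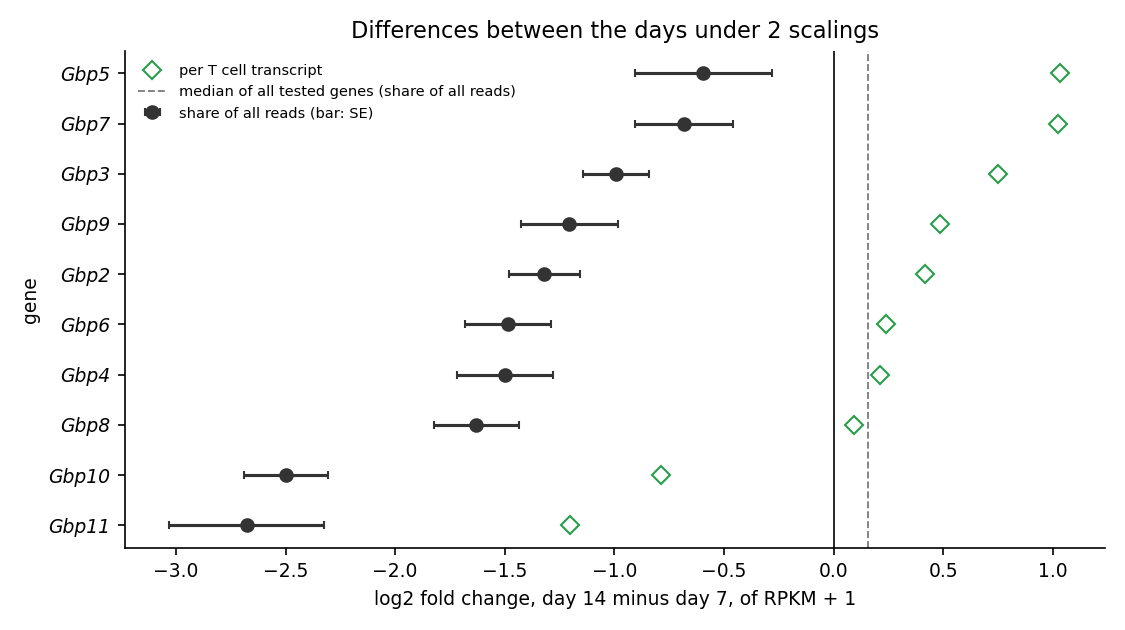
Log2 fold change from day 7 to day 14 for each Gbp gene as a share of all reads (filled, bar SE) and per T cell transcript (open), with the median of all tested genes at 0.16 as a dashed line. Filled points are all below 0, whereas open points are below 0 for Gbp10 and Gbp11 and above it for the other 8. Per T cell transcript the median of all tested genes is 1.72, above every open point.

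The make-up of the family differed between the days, and shares within the family do not depend on how libraries are scaled. Shares do depend on how reads were assigned among Gbp6, Gbp10 and Gm43302, which is uncertain and enters the chromosome 5 total. The chromosome 3 members gave 49.1%, 50.1% and 50.7% of the summed Gbp RPKM on day 7 and 61.2%, 62.9% and 62.6% on day 14. Every day 14 library lay above every day 7 library in this share. The sum of the chromosome 3 members was 2.09-fold lower on day 14 and that of the chromosome 5 members 3.43-fold lower. Gbp3 went from 23.3% ± 2.42 (SD, n = 2) of the sum to 30.2% ± 1.06 (SD, n = 3) and Gbp10 went from 12.9% ± 2.39 to 5.64% ± 0.21, whereas Gbp2 was at 19.2% ± 0.29 and 19.8% ± 0.70.

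**Figure D5:**
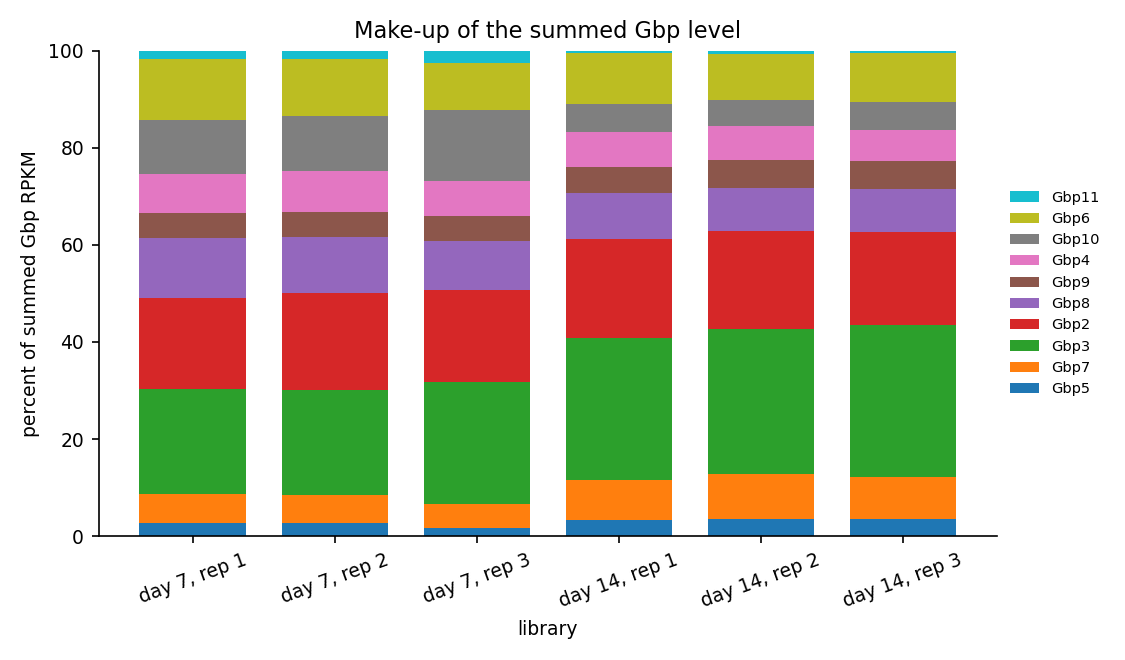
Percent of the summed Gbp RPKM from each gene in the 6 libraries, with chromosome 3 genes (Gbp5, Gbp7, Gbp3, Gbp2) at the bottom. Chromosome 3 genes take 49.1% to 50.7% on day 7 and 61.2% to 62.9% on day 14, and Gbp10 shrinks most among the larger members. The assignment of reads to Gbp6 and Gbp10 is uncertain.

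The order of levels differed between the days mainly through Gbp10. On day 7 it ran from Gbp3 and Gbp2 over Gbp10, Gbp8 and Gbp6, whose libraries overlapped, to Gbp4, then Gbp7 and Gbp9, and last Gbp5 and Gbp11, which overlapped. On day 14 Gbp6, Gbp8 and Gbp7 followed Gbp2, with Gbp8 overlapping each of the other two while Gbp6 lay above Gbp7 in every library, then Gbp4 came, Gbp10 overlapped with Gbp9, and Gbp5 and Gbp11 followed without overlap. Gbp2b, a close relative of Gbp2 (82.5% identity) that was no member, was at 40.7, 39.9 and 25.0 RPKM on day 7 and 10.2, 9.17 and 10.9 on day 14. It fell by 1.57 on the log2 scale (SE 0.29, limma adjusted p = 0.011), with 0.09 per T cell transcript. The pseudogene Gbp2-ps is listed at 0 in every library.

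The inducing pathway was examined with lists chosen with earlier results of these data known. Over all genes 327 of 6691 were past the threshold (4.89%), 3.18% in the lower direction and 1.70% in the higher. Of 20 tested genes of interferon gamma signalling 10 fell and 0 rose, with a median log2 fold change of -0.98. Ifng, the ligand, was at 35.9, 36.4 and 37.6 RPKM and then 3.57, 4.95 and 5.79. It fell by 2.73 on the log2 scale (limma adjusted p = 0.0010) and was also lower per T cell transcript, at -1.12. The receptor chains differed from each other: Ifngr1 fell by 1.34 (limma adjusted p = 0.0034), while Ifngr2 had a log2 fold change of 1.14 that did not pass (limma adjusted p = 0.23). Of the kinases, Jak1 was at -0.69 and Jak2 at 0.04, and neither passed in the main fit. Some alternatives gave a call: Jak1 passed without weights (limma adjusted p = 0.024) and with limma-voom (0.0031), and Ifngr2 passed without weights (limma adjusted p = 0.020).

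Irf1, an activator of ISRE genes, was at 65.4, 65.6 and 59.4 RPKM and then 26.9, 26.5 and 26.1, and fell by 1.20 on the log2 scale (limma adjusted p = 0.0062). Il18r1, a receptor chain for the interferon gamma inducer IL-18, fell by 2.21, and Ptpn6, a phosphatase of lymphocyte signalling, fell by 1.03 (limma adjusted p = 0.0010 and 0.0035). Socs1, the feedback inhibitor, was listed at 0 in the day 7 libraries and at 0.576, 0.653 and 1.23 RPKM on day 14, too low to be tested. Without day 7 replicate 3 the log2 fold change of Irf1 was -1.27. Per T cell transcript 11 genes of the list were higher and 1, Ifng, was lower. On that scale 6198 of all 6691 tested genes were higher and 20 lower, so a higher count is not particular to the list.

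The immunity-related GTPases (IRGs) act on the same pathogen vacuoles as GBPs. Of 17 tested genes of these and other large interferon-induced GTPases, Gbp2b included, 9 fell and 0 rose, with a median of -1.03. All 17 were below 0, beside 2596 of 6691 over all tested genes. Igtp was at 157, 147 and 159 RPKM and then 52.6, 53.9 and 57.8, and fell by 1.49 (limma adjusted p = 0.00043). Gm12250, Iigp1 and Tgtp2 fell by 1.72, 1.38 and 1.26. Irgm1, a regulator of the other IRGs, had a log2 fold change of -1.03 that did not pass (limma adjusted p = 0.060). It did pass without weights, with median-of-ratios scaling and with limma-voom (limma adjusted p = 0.041, 0.031 and 0.0048). Its day 7 replicate 3, at 32.4 RPKM, lay below the other day 7 libraries at 55.4 and 53.0. Without day 7 replicate 3 the log2 fold change of Tgtp2 was -1.05. Relative to T cell transcripts 6 of the list were higher and 0 lower, beside 6198 of 6691 higher over all tested genes.

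Other targets of interferon gamma include genes of antigen processing, chemokines and effectors of macrophages. Of 28 tested 8 fell and 1 rose, Nos2, beside 1.70% of all genes that rose, and the median was -0.57. Tap2 and Tapbp, which load peptides onto MHC class I, fell by 1.58 and 1.30, the immunoproteasome subunit Psmb8 fell by 1.13, and the serpin Serpina3g fell by 1.47 (limma adjusted p from 0.0035 to 0.011). Without day 7 replicate 3 the log2 fold changes of Tap2, Tapbp, Psmb8 and Nos2 were -1.21, -1.27, -1.02 and 2.47. With all libraries Nos2, the inducible nitric oxide synthase, had a log2 fold change of 2.30 (limma adjusted p = 0.025). It missed the threshold with a pseudocount of 0.1 (0.12) and with a variance trend on mean log2 CPM (0.13). The list had 5 lower genes without day 14 replicate 2. On the scale of T cell transcripts 18 were higher and 0 lower, beside 6198 of 6691 higher over all tested genes.

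Of 20 tested genes of the machinery that works with GBPs in prenylation, autophagy and inflammasomes, 2 fell and 1 rose, with a median of -0.14. Aim2, a DNA sensor that forms an inflammasome, fell by 1.52 and Gsdmd, the pore-forming gasdermin, fell by 1.39, whereas Il1b, a cytokine matured by inflammasomes, rose by 0.96 on the log2 scale (limma adjusted p = 0.026, 0.011 and 0.045). Casp4, the sensor of bacterial lipopolysaccharide, was at -0.98 and did not pass (limma adjusted p = 0.21). It did pass with 6 libraries counted singly (0.023) and with limma-voom (0.028). Without day 7 replicate 3 the log2 fold changes of Aim2, Gsdmd and Il1b were -1.76, -1.61 and 0.80. In limma Il1b no longer passed without day 7 replicate 1 (adjusted p = 0.055) or day 14 replicate 2 (0.053) or 3 (0.056). It also missed the threshold without a filter (0.083), with a filter at an RPKM of 1 (0.057) and with median-of-ratios scaling (0.0997). Scaled to T cell transcripts 15 were higher and 0 lower, beside 6198 of 6691 higher over all tested genes.

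Genes typical of type I interferon, which acts through ISRE elements, were split. Of 25 tested 4 fell and 1 rose, with a median of -0.27. Zbp1, Isg15 and Irf7 fell by 1.71, 0.89 and 1.07, and the antiviral gene Rsad2 rose by 1.93 on the log2 scale (limma adjusted p = 0.0032, 0.020, 0.022 and 0.027). Rsad2 was at 4.35, 4.99 and 14.6 RPKM on day 7 and 35.7, 32.0 and 36.7 on day 14, so it was higher on the later day, unlike the Gbp genes on the same scale. It no longer passed without a filter (adjusted p = 0.070) or with a filter at an RPKM of 1 (0.059), nor did Isg15 with a variance trend on mean log2 CPM (0.059). Without day 7 replicate 3 the log2 fold changes of Zbp1, Isg15 and Irf7 were -1.56, -1.09 and -1.01. Set against T cell transcripts 22 were higher and 0 lower, beside 6198 of 6691 higher over all tested genes.

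Among all tested genes outside the family, the 8 profiles nearest to the summed Gbp level over the 6 libraries were, in order, Iigp1, Ptprc, Sla, Naaa, Arhgef1, Gm4070, Havcr2 and Anxa6. The root-mean-square distance of their centred log2 profiles from it was 0.030 for Iigp1 and 0.085 for Anxa6. The members themselves lay at distances from 0.047 for Gbp2 to 0.55 for Gbp10 and 0.64 for Gbp11, so several genes outside the family followed the sum more closely than most members did. Iigp1, an IRG, was at 97.9, 96.6 and 106 RPKM and then 38.9, 39.2 and 37.1. Ptprc, the pan-leukocyte marker CD45, was at 116, 115 and 121 RPKM and then 42.4, 40.9 and 41.0. The distance is a description over 6 libraries that share their day and depth.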

How the data were processed

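Poly-A RNA was sequenced as stranded, paired libraries with molecular identifiers, per the labels. Trimmomatic 0.36, featureCounts from Subread 1.5.1 and the build GRCm38 are listed in the submitters' processing notes. Which aligner was used, whether identifiers were collapsed and how strand was set is not given in the sources used here. The authors deposited RPKM with gene lengths, per the file headers. RPKM times length gave whole reads, with a largest deviation of 4.1e-05, so depth could be recovered. Intervals and SEs cover the libraries at hand, and reads without a stated use of identifiers are not independent molecules.

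limma 3.58.1 in R 4.3.3 was fitted to log2(RPKM + 1) over 6691 genes that averaged at least 20 CPM. Weights per day came from a loess curve of the variance against the mean (span 0.3, floor 0.005), followed by a moderated test with a variance trend and a Benjamini-Hochberg threshold of 0.05. Fold changes on this scale understate changes of low genes. Day 7 replicates 1 and 2 were averaged as 1 sample. The fitting code was run on simulated reads with known changes as a check of the code alone. Same-numbered replicates did not deviate together (correlations from -0.034 to -0.015), and no block was fitted. With day 7 replicates 1 and 2 nearly alike, these correlations cannot decide whether samples were paired. Sequences and motifs were read with Python 3.11.15, and coding identity was aligned with Biopython 1.88.

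Members and lists were chosen with earlier results of these data known. Genes named are the 10 members, Gbp2b, the listed pathway genes (1 is not reported here), up to 4 called genes with the smallest p of each list, and the 8 nearest profiles; Nos2, Gbp2-ps, Gm43302 and Gm43802 were named after their values were seen. Alternatives were other pseudocounts, filters, weights, scalings, a replicate block, limma-voom on recovered reads and leaving out each library. The protein features planned were not analysed here.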

Additional observations from a re-analysis of the deposited data

How the results depend on the processing

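Which genes pass depends much on the processing, and the direction of the Gbp difference depends on the scaling. Over all genes, 327 calls became 1465 without a filter, 1481 with an RPKM of 1 or more in 2 samples, 1011 without weights, 1594 with 6 libraries counted singly, 1268 with limma-voom on recovered reads, 680 with a variance trend on mean log2 CPM (an alternative chosen after seeing the data), 6218 per T cell transcript (6198 higher and 20 lower) and 151 to 334 when 1 library was left out, the lowest without day 7 replicate 3. Median-of-ratios scaling moved the median of all genes from 0.16 to -0.015 and gave 57 higher and 300 lower calls in place of 114 and 213. The split without a filter was 1181 higher and 284 lower. A replicate block with 6 libraries counted singly gave 1163 calls against 1594 without it, and the labels name no source that same-numbered libraries share.

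Counts of lower genes among 10 of interferon gamma signalling, 8 response genes, 9 IRG and other GTPases, 2 of partner machinery and 4 type I genes became 1, 0, 0, 0 and 0 per T cell transcript. Leaving out 1 library other than day 7 replicate 3 gave 9 to 10, 5 to 8, 9 to 10, 2 to 3 and 3 to 4. Response genes reached 13 without weights, with the RPKM filter or with median-of-ratios scaling, 15 with 6 libraries counted singly, 14 with the replicate block or the trend on CPM, and 16 with limma-voom. The IRG list reached 14 with 6 libraries singly or limma-voom. Partner machinery reached 4 with 6 libraries singly, the replicate block or limma-voom, and type I genes reached 7 with 6 libraries singly.

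The log2 ratio of summed Gbp RPKM was -1.38, -1.40 to -1.34 with 1 library left out, -1.57 with median-of-ratios scaling and 0.38 per T cell transcript, where it turned. There the log2 fold changes also turned for Gbp2 (0.42), Gbp3 (0.75), Gbp4 (0.21), Gbp5 (1.03), Gbp6 (0.24), Gbp7 (1.02), Gbp8 (0.091) and Gbp9 (0.49). No member turned under another alternative that was run. Pseudocounts, filters and weights do not enter the sum and were not run for it. ISRE matches went from 5 promoters to 3 in the shorter window. Depth, 57 reads at the lowest, limits Gbp11 most.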
